A study of Mus musculus with 8 samples.

Results

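Transcripts of 39 genes of fatty acid uptake, oxidation and lipolysis were followed in mouse gastrocnemius, a large and mostly fast calf muscle. The genes were listed by name for their role in lipid use, and all 39 were found by Ensembl identifier among the 23008 mouse genes of the deposited table. RNA had been sequenced in 8 libraries from wild-type C57BL/6J mice. All animals had received AAV9, a virus that reaches striated muscle from the blood, packaged with an epigenome editing construct named GNDM, by tail vein injection. In 4 libraries GNDM carried the m31 guide RNA, directed at Lama1, and in the other 4 the guide was a non-targeting control. Muscle was collected 11 weeks after injection, and the age at injection is given as 7 weeks in the protocol and as 7 to 12 weeks in the design text. The labels state neither the dose nor the promoter that drives the construct, and they do not say whether the libraries stem from different animals; the p-values therefore reflect only how far these samples scatter, part of which may be technical.

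Muscle uses fatty acids that lipoprotein lipase frees in the capillaries or that lipases release from droplets inside the fibre. The acids are activated to acyl-CoA, cross the inner mitochondrial membrane as carnitine esters, and are shortened in the matrix by beta-oxidation, a cycle of dehydrogenation, hydration, dehydrogenation and thiolysis. The first dehydrogenation passes its electrons through the electron transfer flavoprotein to ubiquinone. Malonyl-CoA restrains the entry step, pyruvate dehydrogenase kinases turn glucose oxidation down when fat is burned, and many of these genes respond to the peroxisome proliferator-activated receptors (PPARs), which fatty acids bind. Oxidative fibres carry more of this machinery than fast glycolytic fibres, which make up most of the gastrocnemius.

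Values are size-factor-normalised reads, that is, reads per gene divided by 1 factor per library, and are given in the order of replicates 1 to 4. Reads in genes came to 34142447 to 37792459 per m31 library and 25157486 to 39210248 per control library. Lama1 had 209, 295, 273 and 86.5 normalised reads in m31 libraries, against 4.18, 0, 2.25 and 0 in control libraries, which matches the guides named in the labels. Fast-fibre genes summed to 3237884 to 3909707 in m31 libraries and 3221023 to 4304417 in control libraries. All of them but Tnnc2, at 21.0 to 42.2 normalised reads, were abundant in every library. This matches skeletal muscle, while which muscle it was cannot be told from these genes. Libraries stood apart in other tissue content: 8 connective tissue and tendon genes summed to 190888 in m31 replicate 4 and to 42683 to 61658 in the other m31 libraries, against 26371 to 53908 in control libraries. The sum of 8 macrophage genes reached 6232 in m31 replicate 4, 4265 in control replicate 3, and 1912 to 3424 elsewhere. The GNDM transcript was lowest in m31 replicate 4, with 6157 normalised reads, and highest in control replicate 3, with 37989. All genes of the connective tissue and macrophage lists were above 0 in every library. Results on the lipid genes are also given without these libraries. In bulk muscle, fewer cells of a type and less RNA per cell cannot be told apart.

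None of the 39 lipid genes passed the test between guides. In limma's moderated test on log2(value + 1), with Benjamini-Hochberg adjustment over 15960 genes, the count past an adjusted p of 0.05 was 0 of 39, in a comparison that called 0.00627% of all genes, a single gene. edgeR on the recovered reads called 0 of 39 (0.00618% of all genes) and DESeq2 called 0 of 39 (0.164% of all genes). At an unadjusted limma p under 0.05 stood 2 of 39, or 5.13%, against 6.79% of all genes tested. These were Cpt1a, with a log2 difference of 0.46 ± 0.15 (SE) and an adjusted p of 0.652, and Acadm, with -0.25 ± 0.11 and 0.72. The same 2 members had an unadjusted p under 0.05 in edgeR (7.02% of all genes) and in DESeq2 (5.38% of all genes). Every difference is m31 minus control, so a positive value is a higher level with m31.

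**Figure D1:**
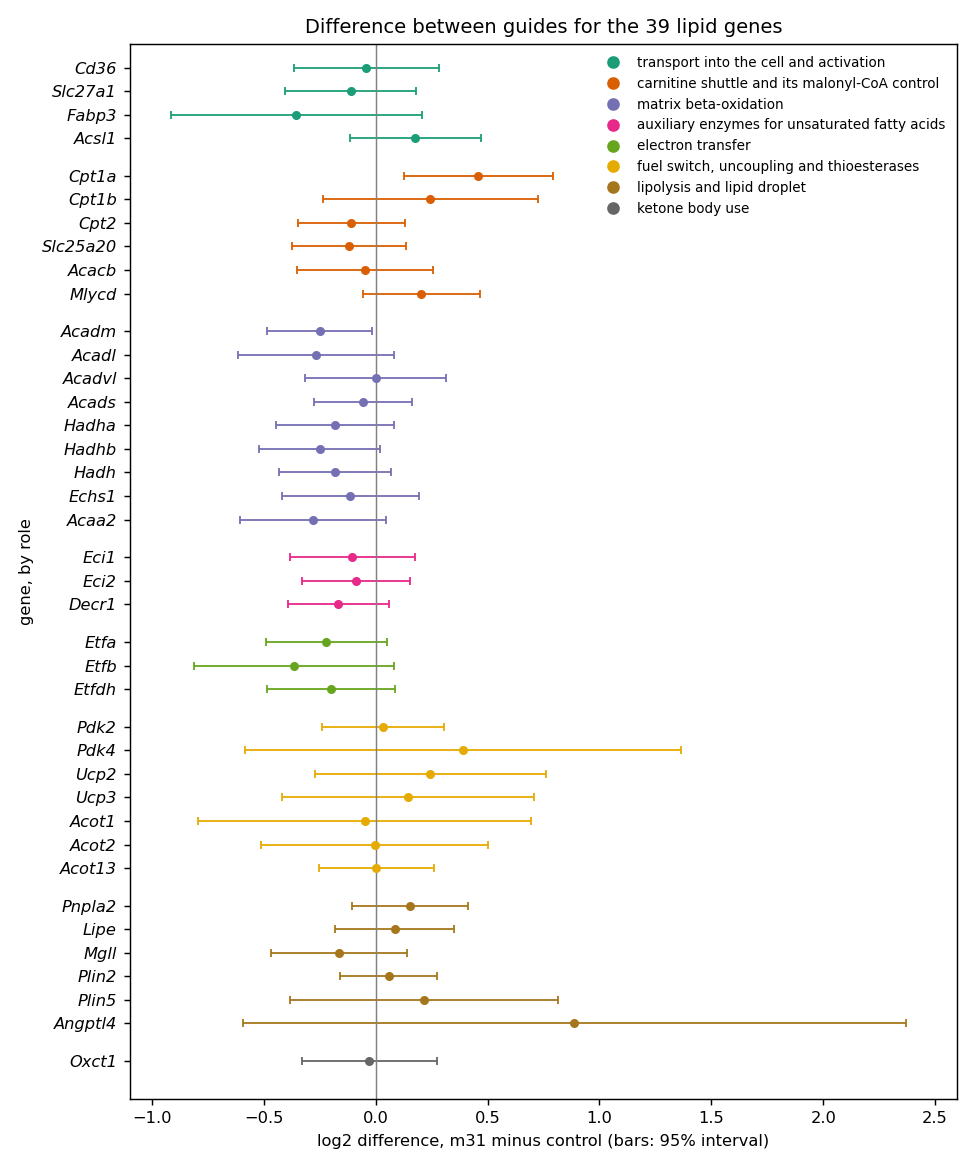
Log2 difference between guides (m31 minus control, horizontal axis) for each of the 39 lipid genes, grouped by role (vertical axis), with points for the limma estimate and bars for its 95% interval. The interval lies to the right of 0 for Cpt1a and to the left of it for Acadm, and covers 0 for the other 37 genes; it is widest for Angptl4, from -0.59 to 2.37.

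The intervals bound how large a difference could be. The median SE of the 39 differences was 0.13 on the log2 scale. The groups overlapped for every member, with 0 of 39 fully separated against 3.85% of all genes. Negative differences were found for 25 of 39 genes, or 64.1%, against 48.7% of all genes tested, and the median difference was -0.05 against 0.0052 over all genes. This balance rested on m31 replicate 4: without it, 17 of 39 differences were negative and the median was 0.02. By role, the 9 matrix enzymes, 3 auxiliary enzymes and 3 electron transfer genes all had negative differences, with medians of -0.18, -0.10 and -0.22. Among the 9, Acadvl stood at -0.00030 ± 0.14, and its sign changed under 7 of the 19 alternative settings. Of 6 lipolysis and droplet genes 5 had positive differences, with a median of 0.12. Without m31 replicate 4, 7 of the 9 matrix, 2 of the 3 auxiliary and 3 of the 3 electron transfer genes were negative. Their medians were then -0.10, -0.08 and -0.12. Transport and activation genes had a median of -0.08, the carnitine group 0.08, and the fuel switch group 0.03. Of the 21 members that are known as PPAR-responsive, 10 had positive and 11 negative differences.

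Promoter sequence is shown for 4 members: Hadhb, because it shares its start region with Hadha, Cpt1a and Acadm, because their differences had the smallest p, and Ucp3, because it held 2 copies of the motif searched upstream of its start. Each line is the 250 bases before the RefSeq transcription start in the build GRCm38.p6, 5′ to 3′ on the strand of the gene. The stretch for Hadhb is chr5:30155003-30155252 on the plus strand, and its capitals mark the 85 bases between the GENCODE starts of Hadha and Hadhb. For Cpt1a (chr19:3323051-3323300, plus strand), Acadm (chr3:153944644-153944893, minus strand) and Ucp3 (chr7:100472741-100472990, plus strand), capitals mark AGGTCA or its reverse complement TGACCT, the hexamer that PPARs and related nuclear receptors read. The Cpt1a stretch lies inside the GENCODE span of the gene, since GENCODE places the start further upstream.
Hadhb: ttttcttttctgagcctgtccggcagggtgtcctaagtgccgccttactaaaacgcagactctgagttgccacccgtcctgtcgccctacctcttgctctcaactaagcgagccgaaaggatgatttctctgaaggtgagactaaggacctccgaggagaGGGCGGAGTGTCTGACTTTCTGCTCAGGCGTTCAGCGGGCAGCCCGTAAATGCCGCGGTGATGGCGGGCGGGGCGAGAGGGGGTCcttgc
Cpt1a: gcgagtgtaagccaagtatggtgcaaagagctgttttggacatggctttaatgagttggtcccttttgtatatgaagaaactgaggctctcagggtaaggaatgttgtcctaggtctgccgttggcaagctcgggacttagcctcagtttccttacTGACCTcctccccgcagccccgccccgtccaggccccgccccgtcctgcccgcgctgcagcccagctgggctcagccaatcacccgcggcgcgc
Acadm: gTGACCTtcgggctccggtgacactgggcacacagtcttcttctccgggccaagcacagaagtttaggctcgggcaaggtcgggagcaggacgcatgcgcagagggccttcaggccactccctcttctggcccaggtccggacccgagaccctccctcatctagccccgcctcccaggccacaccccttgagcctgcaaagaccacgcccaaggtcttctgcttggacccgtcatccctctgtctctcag
Ucp3: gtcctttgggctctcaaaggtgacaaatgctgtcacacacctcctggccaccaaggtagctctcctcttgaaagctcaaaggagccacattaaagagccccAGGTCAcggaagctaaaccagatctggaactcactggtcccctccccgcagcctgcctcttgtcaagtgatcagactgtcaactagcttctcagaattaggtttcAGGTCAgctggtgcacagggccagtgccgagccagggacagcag

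RefSeq promoters, 250 bases before to 50 after the start, were matched by symbol for 34 of the 39 members; Decr1, Acaa2, Acot13, Angptl4 and Cpt1b had no entry. AGGTCA on either strand occurred in the promoter of 9 of 34 members, or 26.5%, against 18.1% of 27025 genes and 16.3% of 32851 promoters. The 9 were Acacb, Acadm, Acadvl, Cd36, Cpt1a, Echs1, Plin2, Plin5 and Ucp3. The direct repeat AGGTCANAGGTCA, which contains the hexamer in 2 copies, occurred in 0 of 34, against 0.0481% of the 27025 genes. Its relaxed form AGGNCANAGGNCA occurred in 0 of 34, against 0.451%. TCAAGGTCA, which also contains the hexamer, occurred in 0 of 34, against 0.466%. With shares this low over all genes, a count of 0 among 34 does not set the members apart. A match is a run of letters in this window only. The copy in Cpt1a began 94 bases before the start, that in Acadm 249 bases before it, and those in Ucp3 149 and 44 bases before it.

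Per kilobase of the principal transcript, levels differed widely between members. Fabp3, the heart-type fatty acid binding protein that carries fatty acids through the cytosol, was the most abundant member, with a mean of 11517 normalised reads per kb in m31 libraries and 14622 in control libraries. Next came Pdk2, a kinase that inhibits pyruvate dehydrogenase, with 7125 with m31 and 7005 with control. Hadhb (4439 with m31 and 5228 with control), Acadm (3683 with m31 and 4349 with control), Pnpla2 (4062 with m31 and 3648 with control) and Acadl (3405 with m31 and 4052 with control) followed. At the low end stood Acot1 (37.4 with m31 and 37.6 with control), Cpt1b (42.2 with m31 and 35.4 with control), Angptl4 (53.5 with m31 and 26.4 with control), Etfb (89.8 with m31 and 113 with control) and Cpt1a (125 with m31 and 91.8 with control).

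The levels of Cpt1b and Etfb are uncertain. Cpt1b encodes the muscle form of carnitine palmitoyltransferase 1 and Cpt1a the liver form, yet Cpt1b stood below Cpt1a per kb with both guides. In the GENCODE M21 annotation, 2744 exon bases of Cpt1b, 81.4% of its merged exons, also belong to Gm44502 on the same strand. Of Etfb, 617 exon bases, or 53.0%, belong to Gm45233 in the same way, and Etfb stood far below Etfa (3069.6 normalised reads per kb with m31 and 3536 with control), although the 2 proteins form a heterodimer. Neither of those overlapping genes was among the genes of the deposited table, and how reads in shared exons were counted is not given in the sources used here.

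**Figure D2:**
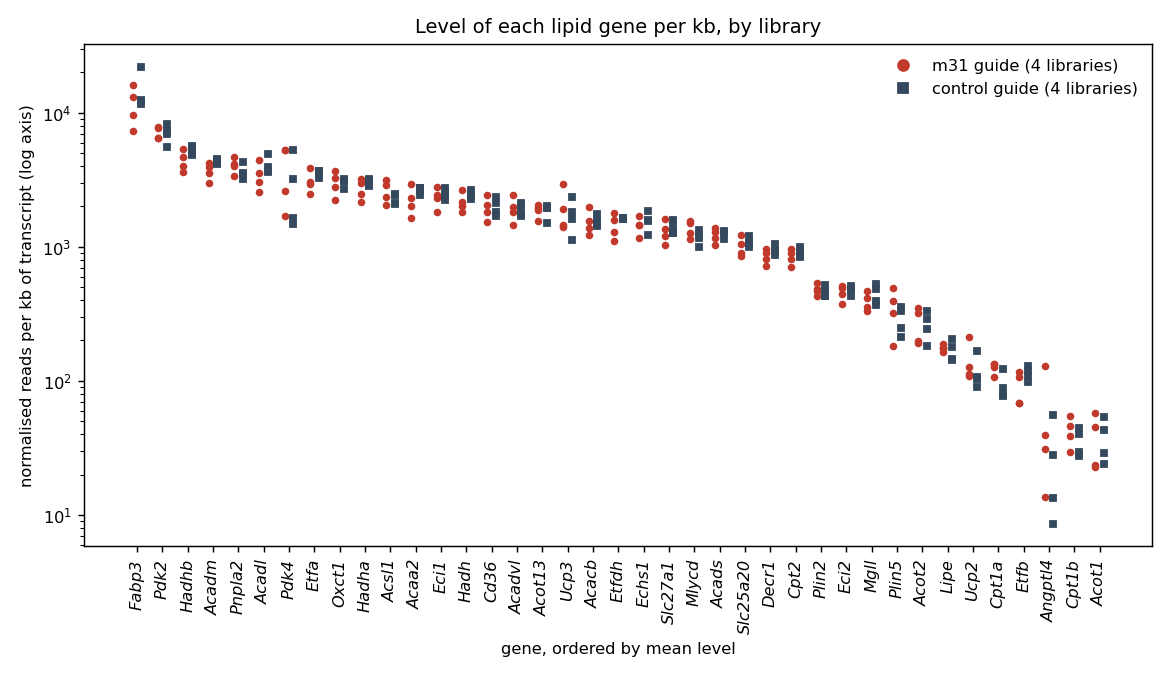
Level of each of the 39 genes in normalised reads per kb of principal transcript (vertical log axis), with genes ordered by mean level (horizontal axis), red circles for the 4 m31 libraries and blue squares for the 4 control libraries. Fabp3 is at the top and Acot1, Cpt1b and Angptl4 at the bottom, and the 2 groups of points overlap for every gene.

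For all 4 uptake and activation genes the libraries of the guides overlapped. Cd36, the main fatty acid translocase of the muscle surface, had 6957, 6222, 8261 and 5191 normalised reads in m31 libraries, against 5773, 6209, 8048 and 7213 in control libraries. The highest and the lowest value were both in m31 libraries, replicates 3 and 4, and the difference was -0.04 ± 0.15. Fabp3 had 10837, 7883, 13169 and 6025 with m31, against 9603, 10087, 18137 and 10309.8 with control. Control replicate 3 stood alone at the top, above the next library, m31 replicate 3, while the other 3 control libraries lay within the range of m31, and the difference was -0.35 ± 0.25 (-0.91 to 0.21 as the 95% interval). Without m31 replicate 4 and control replicate 3 it was 0.06. A processed pseudogene, Fabp3-ps1, is 99.3% identical to Fabp3 over 402 bases, 48.8% of the transcript. Reads may be divided between them, and how many is not known. Slc27a1, which encodes fatty acid transport protein 1, averaged 3629 ± 680.1 with m31 and 3888 ± 435 with control (SD, n = 4 each), a difference of -0.11 ± 0.13. Acsl1, the main long-chain acyl-CoA synthetase of muscle, averaged 10180.4 ± 1971 with m31 and 8906 ± 789 with control, a difference of 0.18 ± 0.13. All 4 genes were lowest in m31 replicate 4.

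In the carnitine group, Cpt1a (chr19:3322334-3385733, plus strand) had the smallest p of all 39 genes. It had 573, 457, 547 and 574 normalised reads in m31 libraries, against 333, 381, 530.5 and 341 in control libraries. All m31 libraries lay above 3 of the control libraries, and control replicate 3 lay inside the m31 range. The difference of 0.46 ± 0.15 had a 95% interval of 0.13 to 0.79, an unadjusted p of 0.0111 and a limma adjusted p of 0.652. It was positive with each library left out, from 0.38 to 0.61, and without control replicate 3 the groups did not overlap, as for 12.2% of all genes in that setting, with a limma adjusted p of 0.198. Cpt1a was highest in m31 replicate 4, where most other members were lowest, and among control libraries in control replicate 3. Those libraries had the highest macrophage sums, 6232 and 4265 normalised reads. Replicate 1 of m31 had nearly the same Cpt1a level as replicate 4 with a macrophage sum of 2737. The part of macrophages in this was not tested. The mean level of Cpt1a was 538 ± 55.0 with m31 and 396 ± 91.8 with control (SD, n = 4 each).

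Cpt1b had 159, 111, 133 and 85.7 normalised reads with m31, against 116, 128, 85.4 and 80.0 with control. Its highest value was in m31 replicate 1, the groups overlapped broadly, and the difference was 0.24 ± 0.22. Mlycd, malonyl-CoA decarboxylase, which removes the inhibitor of the entry step, had 3328, 2708, 3179 and 2452 with m31, against 2651, 2836, 2129.7 and 2494 with control, a difference of 0.20 ± 0.12 with an adjusted p of 0.791 in limma. Replicates 1 and 3 of m31 lay above all control libraries and replicate 4 below 3 of them. Acacb, the mitochondrial acetyl-CoA carboxylase that makes malonyl-CoA, averaged 13469 ± 2821 with m31 and 13745 ± 1349 with control normalised reads (difference -0.05 ± 0.14). The inner membrane enzyme Cpt2 (1999 ± 272 with m31 and 2146 ± 185 with control) and the carnitine-acylcarnitine translocase Slc25a20 (1802 ± 298 with m31 and 1941 ± 143 with control) had differences of -0.11 ± 0.11 and -0.12 ± 0.11.

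The acyl-CoA dehydrogenases open each turn of the matrix cycle, and each works on a range of chain lengths. Acadm (chr3:153922357-153944632, minus strand), the medium-chain enzyme, had 8044, 7299, 8699 and 6116 normalised reads in m31 libraries, against 9055, 8527, 8708 and 9318 in control libraries. The control libraries were close together, m31 replicates 1, 2 and 4 lay below all of them, and m31 replicate 3 lay among them. The difference of -0.25 ± 0.11 had a 95% interval of -0.48 to -0.02, an unadjusted limma p of 0.0374 and a limma adjusted p of 0.72. Without m31 replicate 4 it was -0.15. A processed pseudogene, Gm5131, is 93.5% identical to Acadm over 681 bases, and reads could be shared with it. Acadl, the long-chain enzyme, had 6799, 5876, 8469.8 and 4950.2 with m31, against 7083, 6881, 9504 and 7585 with control, with control replicate 3 highest and m31 replicate 4 lowest, and a difference of -0.27 ± 0.16. For the very-long-chain enzyme Acadvl the means were 4169 ± 887 with m31 and 4116 ± 433 with control, a difference of -0.00030 ± 0.14; it shares 1151 exon bases with Dvl2 on the opposite strand, and the strand setting of the count is not given. The short-chain enzyme Acads averaged 2260.4 ± 280.1 with m31 and 2338 ± 149.7 with control, a difference of -0.05 ± 0.10.

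Hadha and Hadhb encode the alpha and beta subunits of the mitochondrial trifunctional protein, which carries out the last 3 steps of the cycle on long chains. They lie head to head on chromosome 5, Hadha at chr5:30118304-30155162 on the minus strand and Hadhb at chr5:30155248-30184593 on the plus strand. Their starts are 85 bases apart in GENCODE, the stretch in capitals in the Hadhb line above, and 272 bases apart in RefSeq. Hadha had 11988, 10018, 12848 and 8669 normalised reads with m31, against 11729, 12656, 12940.1 and 11508 with control. Hadhb had 9649, 8269, 11071 and 7374 with m31, against 9865, 10098, 11312 and 11549 with control. Within m31 the order of the libraries was the same for both genes, replicate 3 highest, then 1, 2 and 4, and m31 replicate 4 lay below every control library for both. Differences were -0.18 ± 0.12 and -0.25 ± 0.12, with limma adjusted p of 0.825 and 0.764. The ratio of Hadhb to Hadha reads, not corrected for length, was 0.836 ± 0.0255 in m31 libraries and 0.879 ± 0.0886 in control libraries (SD, n = 4 each). Processed pseudogenes Gm13910 and Gm9108 are 99.8% and 97.6% identical to Hadhb over 1428 and 1426 bases, and reads could be shared with them.

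Hadh, the dehydrogenase of the third step for shorter chains, had 3883, 3583, 4763 and 3231 normalised reads with m31, against 4341, 4714, 4055 and 4260.1 with control. Acaa2, the thiolase that closes the cycle for shorter chains, had 3508, 3056, 4430.2 and 2487 with m31, against 4173, 4195, 3958 and 3691 with control. In both genes m31 replicate 3 was highest of all 8 libraries and the other m31 libraries lay below all control libraries. Differences were -0.18 ± 0.11 for Hadh and -0.28 ± 0.15 for Acaa2. The hydratase Echs1 averaged 2239.9 ± 343 with m31 and 2427 ± 389 with control (SD, n = 4 each), a difference of -0.11 ± 0.14.

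Unsaturated fatty acids need auxiliary enzymes before they can enter the cycle. Decr1, the 2,4-dienoyl-CoA reductase, had 2650.4, 2405, 2869 and 2145 normalised reads with m31, against 2784, 2776, 3124 and 2578 with control, a difference of -0.17 ± 0.10, with replicates 2 and 4 of m31 below every control library. The enoyl-CoA isomerases averaged 2671 ± 462 with m31 and 2846 ± 267 with control for Eci1, and 792 ± 107 with m31 and 838 ± 59.1 with control for Eci2. Their differences were -0.10 ± 0.13 and -0.09 ± 0.11. Of the 15 matrix, auxiliary and electron transfer genes, Eci2 was the 1 that was not lowest in m31 replicate 4.

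Etfa, the alpha subunit of the electron transfer flavoprotein, had 4222, 4069, 5379 and 3421 normalised reads with m31, against 5104, 4897, 4525 and 5164 with control. Etfdh, the dehydrogenase that hands these electrons to ubiquinone, had 3754, 3066, 4229 and 2631 with m31, against 3830.0, 3821, 3905 and 3908 with control. In both genes m31 replicate 3 was highest and the other 3 m31 libraries lay below all control libraries. The control values of Etfdh were close together, with an SD of 47.0 normalised reads against 710.3 in m31. Differences were -0.22 ± 0.12 and -0.20 ± 0.13, with limma adjusted p of 0.781 and 0.821. A processed pseudogene, Gm15285, is 93.4% identical to Etfa over 486 bases, and reads could be shared with it. Etfb, the beta subunit, had 94.96, 61.1, 104 and 60.9 with m31, against 96.3, 114, 87.7 and 105 with control, a difference of -0.36 ± 0.20 on low values that share exons with another annotated gene.

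Several fuel switch genes had wide ranges within each guide. Pdk4, the kinase that fasting and PPARs are known to induce in muscle, had 18293, 5948, 18401 and 9075 normalised reads with m31, against 5200.1, 5745, 18495 and 11147 with control. Replicates 1 and 3 of m31 and control replicate 3 formed the upper end, and m31 replicate 2 and control replicates 1 and 2 the lower end. The difference of 0.39 ± 0.44 had a 95% interval of -0.59 to 1.37, and the highest library was 3.56 times the lowest, a range above that of 97.5% of the 12321 genes with a mean of at least 50. Pdk2 averaged 16002 ± 1629 with m31 and 15732 ± 2478 with control (SD, n = 4 each; difference 0.03 ± 0.12), and the ratio of Pdk4 to Pdk2 reads, not corrected for length, was 0.817 ± 0.410 with m31 and 0.705 ± 0.546 with control.

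Ucp3, the uncoupling protein of muscle mitochondria, had 7229.6, 3417, 4714 and 3562 normalised reads with m31, against 2754, 3938, 4436 and 5749 with control. The highest value was in m31 replicate 1, the lowest in control replicate 1, and the difference was 0.15 ± 0.26. Ucp2, which lies 6904 bases from Ucp3 on chromosome 7 and is abundant in leukocytes, had 449, 431, 503 and 849 with m31, against 412, 424, 665 and 361 with control, a difference of 0.24 ± 0.23. Its highest values were in m31 replicate 4 and control replicate 3, the libraries with the highest macrophage sums (2618 to 6232 over m31 libraries and 1912 to 4265 over control libraries), and the part of macrophages in this was not tested. The acyl-CoA thioesterases Acot1, of the cytosol, and Acot2, of the mitochondrion, averaged 85.0 ± 38.7 and 580.2 ± 178 with m31, and 85.4 ± 30.9 and 575 ± 140.4 with control. Their transcripts are 95.1% identical over 1274 bases, so reads may be split between them, and the ratio of Acot1 to Acot2 lay between 0.119 and 0.172 in all 8 libraries. Acot13 averaged 1339 ± 151 with m31 and 1338 ± 166 with control; the 3 thioesterases had differences of -0.05 ± 0.34, -0.005 ± 0.23 and 0.0036 ± 0.12.

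Of the 6 lipolysis and droplet genes, 5 had positive differences and none passed the test. Pnpla2, adipose triglyceride lipase, which takes the first fatty acid off a stored triglyceride, had 7464, 7223, 8465 and 6077 normalised reads with m31, against 6419, 7753, 5763 and 6315 with control, a difference of 0.15 ± 0.12. Its highest value was in m31 replicate 3 and its lowest in control replicate 3, and the groups overlapped. Hormone-sensitive lipase, Lipe, which acts next, averaged 637 ± 37.9 with m31 and 606 ± 104 with control (SD, n = 4 each), and monoacylglycerol lipase, Mgll, 1523 ± 236 with m31 and 1709 ± 283 with control. Their differences were 0.08 ± 0.12 and -0.16 ± 0.14.

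Of the droplet coat genes, Plin2 had the narrowest range of all members, its highest library being 1.26 times its lowest, with a difference of 0.06 ± 0.10. Plin5, which ties droplets to mitochondria in oxidative tissue, had 781, 639.7, 974 and 361 normalised reads with m31, against 489.6, 703, 659.7 and 425 with control. It was highest in m31 replicate 3 and lowest in m31 replicate 4, and its difference was 0.22 ± 0.27, or 0.50 without m31 replicate 4. Angptl4, a secreted inhibitor of lipoprotein lipase, had 430.2, 44.9, 102 and 131 with m31, against 28.5, 43.9, 183 and 93.3 with control. Its range of 15.1-fold over the 8 libraries was above that of 99.9% of genes with a mean of at least 50, with m31 replicate 1 highest and control replicate 1 lowest. Its difference of 0.89 ± 0.67 was the largest among the members and had the largest SE (limma adjusted p 0.84). Oxct1, the enzyme that lets muscle use ketone bodies, averaged 10606 ± 2155 with m31 and 10664 ± 773 with control, a difference of -0.03 ± 0.14.

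**Figure D3:**
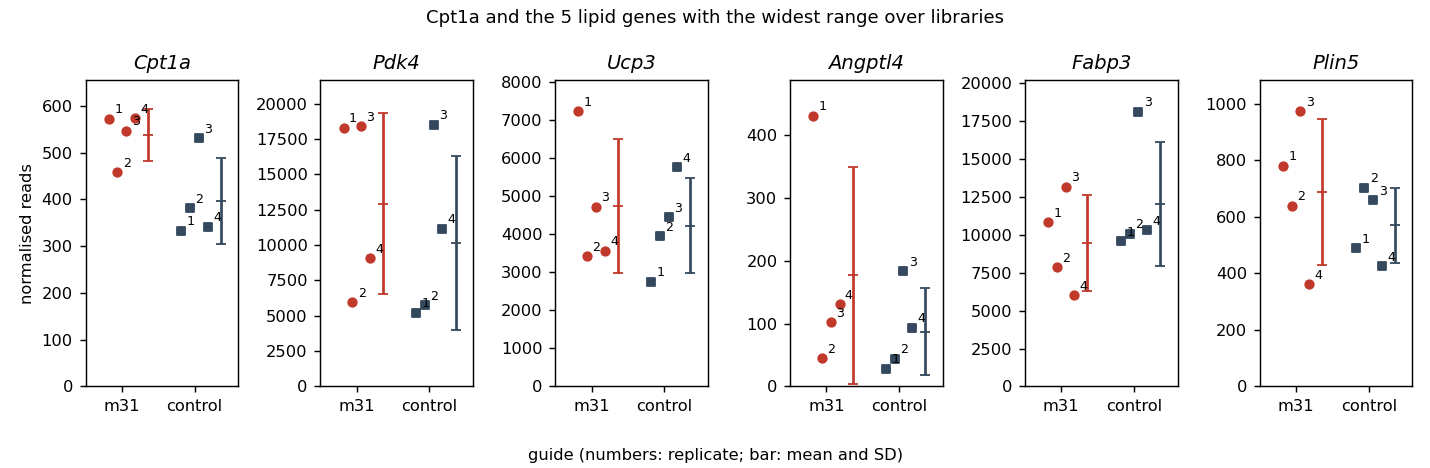
Normalised reads (vertical axis, from 0, a scale for each panel) of Cpt1a and of the 5 members with the widest range over libraries, with m31 left and control right (horizontal axis), points numbered by replicate and bars for mean and SD (n = 4 each). The 4 m31 points of Cpt1a lie at 457 to 574 and control replicate 3 at 530.5; for Pdk4, Ucp3, Angptl4, Fabp3 and Plin5 the ranges of the guides overlap broadly.

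The range over libraries differed between roles. The highest library was 1.57 times the lowest in the median member, and 1.45 times in the median gene with a mean of at least 50. In the fuel switch group the median was 2.35, and Angptl4, Pdk4, Fabp3, Plin5, Ucp3, Acot1 and Ucp2 each exceeded at least 91.5% of genes. Regulators of these genes differed between libraries too. Ppargc1a, the coactivator of mitochondrial and lipid genes, had 1864, 1659.5, 1905 and 1103 normalised reads with m31, against 866, 809, 3369 and 2095 with control, and Ppara had 287, 218, 302 and 193 with m31, against 244, 240.4, 568 and 357 with control. Both were highest in control replicate 3. That library was the highest for 7 of the 39 members, or 17.9%, which is near its share of 16.5% over all genes tested. The clock gene Arntl, whose transcript swings over the day, had 413, 309, 275 and 166 with m31, against 108, 101, 434 and 462 with control. Arntl was lowest in control replicates 1 and 2, libraries that were also among the 3 lowest for Pdk4 and Angptl4. The other of those 3, m31 replicate 2, had 309 for Arntl. Arntl is 1 of 12 clock genes. The median deviation of the 12 from their 8-library mean was highest in control replicates 1 and 2, at 0.19 and 0.26 (log2). The list was split in control replicate 2, which was the highest library for 3 of the 12 and the lowest for 4. Those shares were 25.0% and 33.3%, against 12.1% and 12.5% of all genes tested. Control replicate 1 was the highest library for 3 of the 12 and the lowest for 0. The labels give no time of day or feeding state, and their part in these ranges was not tested. Of 12 clock genes, 0 had an unadjusted limma p under 0.05 between guides. Of 8 glucocorticoid and fasting genes tested, 4 had one, against 6.79% of all genes, with positive differences for Fkbp5 and Mt1 and negative ones for Fbxo32 and Foxo3; none passed the adjusted threshold.

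Across libraries, the enzymes of the matrix cycle stood high or low together within the m31 group. The 15 matrix, auxiliary and electron transfer genes had median deviations from their 8-library mean of 0.00, -0.18, 0.22 and -0.40 (log2) in m31 replicates 1 to 4, against 0.10, 0.11, 0.04 and 0.07 in control replicates 1 to 4. The control libraries stood close together, with m31 replicate 3 above all of them and m31 replicates 1, 2 and 4 below all of them. Replicate 4 of m31 was the lowest library for 14 of these 15 genes and for 25 of all 39 members, or 64.1%, against 13.2% of all genes tested. Replicate 3 of m31 was the highest library for 7 of the 15 and for 16 of the 39, or 41.0%, against 9.51% of all genes. The SD of the log2 values was larger in m31 than in control for 14 of the 15 and for 31 of the 39, or 79.5%, against 38.2% of all genes. Its median over the 15 was 0.26 in m31 and 0.10 in control. Without m31 replicate 4 the m31 median was 0.21, and the SD was larger in m31 for 14 of the 15 and for 25 of the 39, or 64.1%, against 30.8% of all genes. These genes share libraries and are not independent of each other, so the counts describe these 8 libraries.

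**Figure D4:**
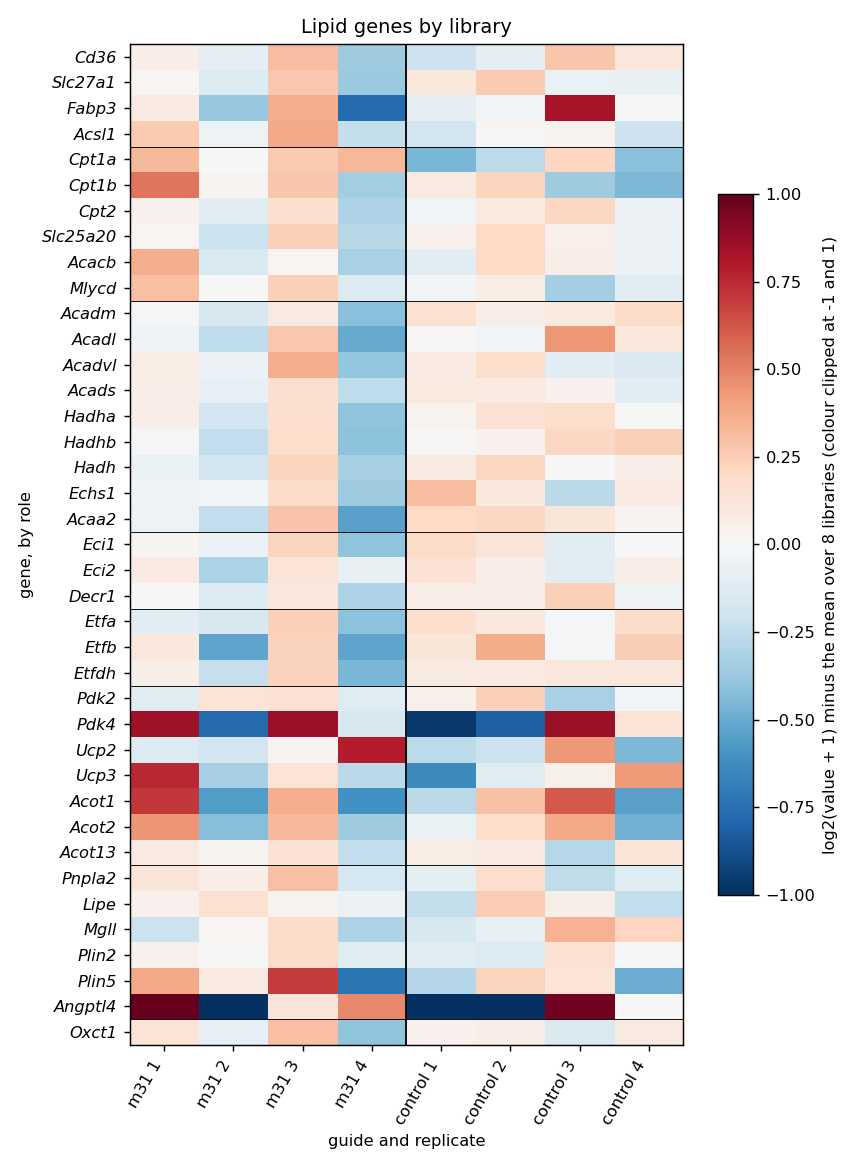
Log2(value + 1) of each of the 39 genes (vertical axis, by role) in each library (horizontal axis, m31 left of the line and control right of it), as the deviation from the gene's mean over 8 libraries, red above and blue below, with colours clipped at -1 and 1. The column of m31 replicate 4 is blue for most genes other than Cpt1a, Ucp2 and Angptl4, and that of m31 replicate 3 is red for nearly all.

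Fibre and tissue content also differed between these libraries. The 8 slow and oxidative fibre genes had median deviations of -0.15, -0.10, 0.20 and -0.84 in m31 replicates 1 to 4, against 0.44, 0.37, -0.02 and 0.20 in control, so m31 replicate 4 was lowest and m31 replicate 3 the highest of its group, as for the 15 oxidation genes. Summed, they came to 64029.8 to 148216 normalised reads in m31 libraries and 109237 to 136432 in control libraries (exact two-sided permutation p = 0.314). Most of that sum was Myh2 in every library, so it mostly follows that gene. Myh2 had 76637, 64189, 117816 and 50472 with m31, against 93116, 102689, 84526 and 82301 with control. All 8 had negative differences with a median of -0.48, and 5 of 8 had an unadjusted limma p under 0.05, against 6.79% of all genes, and none an adjusted one. Myh7, a myosin heavy chain of slow fibres, had 5793, 5883, 6188 and 2905 with m31, against 8586, 9786, 6732 and 6393 with control, a difference of -0.64 ± 0.23 (limma adjusted p 0.698). All m31 libraries lay below all control libraries for 2 of the 8, Myh7 and Tpm3, where 3.85% of all genes did not overlap. Tpm3 had 2797 to 4497 with m31, against 5033 to 5631 with control, a difference of -0.52 ± 0.13 (limma adjusted p 0.627). The connective tissue genes had median deviations of -0.32, 0.25, 0.26 and 1.59 in m31, against -0.30, -0.75, -0.04 and -0.97 in control, and their sum gave an exact two-sided permutation p of 0.0571. The 10 mitochondrial content genes deviated less, by 0.04, -0.08, 0.09 and -0.18 in m31, against 0.13, 0.16, -0.21 and 0.09 in control. The part of fibre and tissue content in the lipid values was not tested.

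**Figure D5:**
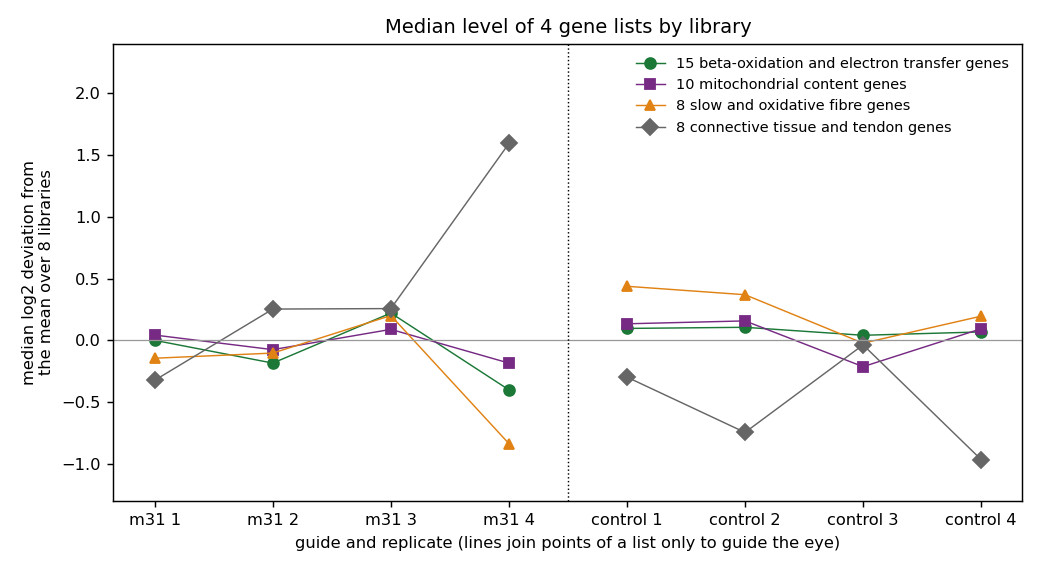
Median log2 deviation from the 8-library mean (vertical axis) of 4 gene lists in each library (horizontal axis, m31 left and control right); lines only join the points of a list. In m31 replicate 4 the connective tissue list stands at 1.59, and the slow fibre list at -0.84, the beta-oxidation and electron transfer list at -0.40 and the mitochondrial content list at -0.18.

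Adipocytes could also hold lipid genes, and their markers were present with both guides. Of 10 adipocyte genes 9 were in the table, and the defining markers Adipoq, Plin1 and Lep were above 0 in every library. By library, the 9 had median deviations of -0.29, 0.48, 0.11 and -0.01 (log2) in m31 replicates 1 to 4, against -0.39, 0.35, 0.44 and -0.47 in control replicates 1 to 4, so each guide had libraries above and below 0. The 9 summed to 15831 to 17936 normalised reads in m31 libraries and 14489.9 to 20967 in control libraries (exact two-sided permutation p = 0.686), and their median difference was 0.07. Plin4 and Fabp4, which muscle fibres and endothelium also make, held 67.2 to 83.2% of that sum, so it follows those 2 genes. Adipoq, the adipocyte hormone adiponectin, had 244, 454, 355 and 327 with m31, against 272, 371, 445 and 235 with control, and the groups overlapped.

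The unadjusted counts depended on which libraries were kept, and no member reached an adjusted p under 0.05 with any library left out. Without m31 replicate 3, 11 of 39 members had an unadjusted limma p under 0.05, against 6.18% of all genes in that setting. Of these, Cpt1a had a positive difference, and Acadm, Acadl, Hadha, Hadhb, Hadh, Acaa2, Decr1, Etfa, Etfb and Etfdh had negative ones. In the same setting 7 members lay below all control libraries in every m31 library kept (Acadm, Acadl, Hadhb, Hadh, Acaa2, Etfa and Etfdh), against 6.62% of all genes whose groups did not overlap, and the smallest adjusted p of a member was 0.746. Without m31 replicate 4, the 4 members under an unadjusted 0.05 were Acsl1, Cpt1a, Mlycd and Plin5, all with positive differences, against 5.73% of all genes. Without m31 replicate 4 and control replicate 3, they were Acsl1, Cpt1a and Plin5, against 10.9% of all genes, and Cpt1a, Ucp2 and Plin2 lay wholly above control, in a setting where 17.2% of all genes did not overlap.

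Of 77 other genes, most of them of lipid metabolism, all were tested and 0 passed limma's adjusted threshold. An unadjusted limma p under 0.05 was found for 7 of 77, or 9.09%, against 6.79% of all genes, with 5 positive and 2 negative differences. Srebf1, a transcription factor of lipid synthesis, had 2614, 2735, 2088 and 2728 normalised reads with m31, against 2130.1, 1994, 1745 and 1526 with control. The lowest m31 library lay just below the highest control library, and the difference was 0.46 ± 0.12 (limma adjusted p 0.647). Nrip1, a corepressor of nuclear receptors that restrains oxidative genes in muscle, had 858, 740.4, 947 and 1153 with m31, against 1336, 1074, 1344 and 1489.8 with control, a difference of -0.51 ± 0.14 (limma adjusted p 0.647). Only m31 replicate 4 reached into the control range. Acsf2, an acyl-CoA synthetase family member, averaged 157 ± 13.6 with m31 and 109 ± 28.2 with control, and its groups did not overlap (difference 0.56 ± 0.20). The next were Pdp2, a phosphatase that reactivates pyruvate dehydrogenase, with 0.58 ± 0.22, Ivd, a dehydrogenase of leucine breakdown, with -0.27 ± 0.10, and G0s2, an inhibitor of adipose triglyceride lipase, with 0.51 ± 0.21.

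By group, 9 of the 11 synthesis genes had positive differences (median 0.21), as did 11 of the 14 droplet and storage genes (median 0.07). Of the 17 genes listed as carnitine and oxidation, 13 had negative ones (median -0.07). These 13 include Ivd (-0.27), Acadsb (-0.13), Acad8 (-0.11) and Hibch (-0.12), which act in branched-chain amino acid breakdown. Among the 11 regulators, 6 were positive and 5 negative. Lpl, lipoprotein lipase, had 15385, 14102, 22436 and 11762 normalised reads with m31, against 18148, 16664, 20734 and 23099 with control, a difference of -0.33 ± 0.18, and was lowest in m31 replicate 4. Ppard, the PPAR of oxidative muscle, averaged 1173 ± 44.5 with m31 and 1011 ± 106 with control (SD, n = 4 each), with a limma adjusted p of 0.72. Ppard and Acsf2 were the 2 genes of the 77 whose groups did not overlap, where 3.85% of all genes did not.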

How the data were processed

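Per the labels' protocols, total RNA was extracted with RNeasy columns and libraries were prepared with NEBNext Ultra reagents. The deposited table holds signal, that is, gene reads divided by 1 size factor per library by the authors; STAR and DESeq2 are named, without versions, per the submitters' processing notes, which also name the human build GRCh38.p12 although the identifiers are mouse Ensembl genes. The counting program, strand setting, annotation and filters were not given in the sources used here. Of 11 value columns, 8 matched the labels and 3 were not used. Whole reads were recovered within 0.01 of a read for 100% of values, giving 25157486 to 39210248 reads per library, so spread between libraries limits precision more than depth. The 5 construct entries (0.0230 to 0.142% of reads) were kept out of tests. Of 23008 gene identifiers 22979 had a symbol.

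Differences (m31 minus control) come from limma 3.58.1 in R 4.3.3 with an intensity trend on log2(value + 1), for 15960 genes with a mean of at least 10, all 39 members included, with Benjamini-Hochberg adjustment over all genes and a threshold of 0.05; folds of low genes are understated on this scale. edgeR 4.0.16 and DESeq2 1.42.0 were run on recovered reads. Other alternatives were each library left out, m31 replicate 4 and control replicate 3 left out together, a replicate block, library weights, pseudocounts of 0.5 and 5, no minimum or one of 50, and recentring on medians or quantile normalisation. Members, lists and tests were chosen with earlier results of these data known. Values in every library are printed for the 12 members with the smallest p, the 5 with the widest range and 6 defining members. The fit was tested on simulated data. No 2 libraries of a group were alike within sampling noise (chi-square per degree of freedom 14.3 to 57.9). Transcript lengths, overlaps and positions are from GENCODE M21 (GRCm38), and promoters from RefSeq (GRCm38.p6).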

Additional observations from a re-analysis of the deposited data

Results flagged for a closer look

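Of 102 groups of 4 libraries examined for a library far from the other 3 (39 members, Lama1 and 11 marker sums, each in both guides), 7 held one; chance alone gives about 1 in 20 groups. Among the members there were 2. Fabp3 stood at 18137 normalised reads in control replicate 3, with the other control libraries at 9603 to 10309.8, and Acot13 at 1091 in control replicate 3, against 1399 to 1455. Among the marker sums, m31 replicate 4 was apart for connective tissue and tendon, at 190888 while the other m31 libraries had 42683 to 61658, and for the adipocyte list, at 15831 against 17728 to 17936. That sum is mostly Plin4 and Fabp4 (76.1% in m31 replicate 4), and the list's median deviation there was -0.01, above that of m31 replicate 1 at -0.29, so the adipocyte markers taken gene by gene did not set this library apart. Control replicate 3 was apart for macrophages, at 4265 while its group's others had 1912 to 2176, and for mitochondrial content, at 171343 against 213691 to 217339. Control replicate 2 was apart for Schwann cells, at 4889 against 8346 to 8982.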

How the results depend on the processing

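No member passed an adjusted p of 0.05 under any of the 19 alternatives run, the smallest being 0.164, and 24 of 39 members kept the sign of their difference under every one. The count of all genes past the threshold was 1 in most settings, 3 without m31 replicate 4 and control replicate 3, and 31 with DESeq2. Members whose groups did not overlap numbered 3 of 39 without m31 replicate 4 and control replicate 3, where 17.2% of all genes did not overlap, and 1 of 39 (Acadm) after recentring on library medians, where 4.25% did not. Leaving out each library in turn gave 1 to 2 called genes, 0 called members, 17 to 27 negative differences, a median of -0.15 to 0.02, 1 to 11 members under an unadjusted 0.05 and 0 to 7 without overlap. Members that changed sign had log2 differences as follows. Without m31 replicate 4 and control replicate 3 these were Cd36 0.16, Fabp3 0.057, Cpt2 0.027, Acacb 0.066, Acadvl 0.091, Acads 0.025, Pdk2 -0.026, Acot1 0.34, Acot2 0.24, Acot13 -0.0092 and Oxct1 0.049. After recentring they were Pdk2 -0.0023 and Acot13 -0.032. With library weights they were Cd36 0.10, Pdk2 -0.0086, Acot1 0.027, Acot13 -0.023 and Mgll 0.0079. With edgeR they were Acadvl 0.016, Acot2 0.0083 and Acot13 -6.6e-05, and with DESeq2 Acadvl 0.020 and Acot2 0.014. With 1 library left out, the differences of members that changed sign in any leave-out setting were -0.15 to 0.072 for Cd36, -0.53 to -0.14 for Fabp3, -0.18 to -0.025 for Cpt2, -0.18 to 0.052 for Acacb, -0.12 to 0.13 for Acadvl, -0.12 to 0.020 for Acads, -0.19 to 0.012 for Eci1, -0.15 to 0.0029 for Eci2, -0.071 to 0.12 for Pdk2, -0.080 to 0.31 for Ucp3, -0.29 to 0.15 for Acot1, -0.17 to 0.14 for Acot2, -0.091 to 0.086 for Acot13 and -0.13 to 0.10 for Oxct1. The cause was not tested.

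The labels do not say whether the replicate numbers pair the samples. Same-numbered libraries had correlations of deviations of 0.05, -0.05, -0.13 and -0.18, and libraries of unlike number -0.18 to 0.22. These values show no pairing but cannot exclude one. With the replicate block, 1 gene was called, no member was, and 3 of 39 members had an unadjusted p under 0.05 (Cpt1a, Acadl and Fabp3), against 5.43% of all genes.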
